A study of Mus musculus with 11 samples.

Results

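*Frat1*, *Frat2* and the genes of the GSK3 destruction complex were followed in single mouse embryos that had or lacked PRDM10, a zinc finger transcription factor. The set held 8 of the 54146 genes quantified: *Frat1*, *Frat2*, *Gsk3a*, *Gsk3b*, *Axin1*, *Axin2*, *Apc* and *Csnk1a1*. They were listed by symbol after *Frat1* had been seen to fall in mutants, and the question set for them was whether *Frat2* makes up for that fall. The set was thus chosen by the mutant and control values of *Frat1* in TPM (transcript abundance corrected for gene length and library total) and in counts, and these are given below as a description with no test. The other 7 genes were listed for their roles.

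Each of the 11 libraries was made from 1 embryo of the C57BL/6 strain, collected at the 8-cell stage on embryonic day 2.5 from natural matings between *Prdm10* heterozygotes. The 6 controls were *Prdm10* WT/HET, so wild-type and heterozygous embryos were pooled, and the 5 mutants were *Prdm10* KO. Genotype was assigned from qRT-PCR detection of exon 5 of *Prdm10* in the embryo's cDNA. Batch 1 held 3 controls and 2 mutants whose cDNA went through 16 pre-amplification cycles, and batch 2 held 3 controls and 3 mutants with 13 cycles.

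FRAT proteins bind GSK3 and compete with Axin for it. Axin and APC hold beta-catenin next to its kinases, CK1 alpha (encoded by *Csnk1a1*) primes it, and GSK3 completes the phosphorylation that marks it for destruction. Wnt signalling inhibits this complex, and the stabilised beta-catenin then activates targets that include *Axin2*, itself a second scaffold and a brake on the pathway.

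Summed counts per library ran from 3534735 to 8265840. *Prdm10* was examined as a check on the labels, and its TPM was 11.1 to 24.8 in controls and 4.88 to 8.16 in mutants, with no overlap. Its normalised read count was 236 ± 85.2 (SD) in controls and 151 ± 39.4 (SD) in mutants, and did overlap between the groups. The log2 fold change was -0.66 ± 0.26 SE (DESeq2 unadjusted p = 0.0101, adjusted p = 0.215). The effective length of *Prdm10* that enters its TPM was 3011 ± 334 bases (SD) over the 6 controls and 4746 ± 326 bases (SD) over the 5 mutants. The separation in TPM thus goes with length as well as with lower counts, and exon 5 itself was not examined. All 6 markers written for the 8-cell embryo were detected in every group of each batch, with a summed TPM of 1795 to 3661. Of these markers *Klf5* was higher in mutants (log2 fold change 0.84 ± 0.14 SE, DESeq2 adjusted p = 1.07e-06, edgeR adjusted p = 0.00729). Markers of follicle cells summed to at most 7.83 TPM and those of blood to at most 10.9 TPM in any embryo. In whole-embryo libraries, fewer cells and less RNA per cell cannot be told apart.

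*Frat1* (ENSMUSG00000067199.4, GRCm38 chr19:41829970-41832583, plus strand) encodes the founding member of the family. Its expected counts, the read counts that RSEM assigns to a gene, were 75, 118 and 77 in the batch 1 controls and 72, 14 and 26 in the batch 2 controls. In the mutants they were 0 and 5 in batch 1 and 3, 0 and 8 in batch 2. Every mutant was below every control in both batches, as were 0.632% of all tested genes on the normalised scale, and 2 of 5 mutants had no count. The TPM was 6.11, 14.4 and 5.33 in batch 1 controls and 4.73, 1.97 and 1.88 in batch 2 controls. Among mutants it was 0 and 0.47 in batch 1 and 0.18, 0 and 0.61 in batch 2. The group means were 5.75 ± 4.61 TPM (SD, n = 6) in controls and 0.252 ± 0.277 TPM (SD, n = 5) in mutants. The fitted log2 fold change with batch as a term was -4.20 ± 0.68 (SE), and the lowest control stood at 1.88 TPM against 0.61 TPM in the highest mutant.

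*Frat2* (ENSMUSG00000047604.3, GRCm38 chr19:41845972-41848132, minus strand) encodes a close relative of FRAT1. It was read in all 3 batch 1 controls, with expected counts of 14, 17 and 22. It had 0 counts in both batch 1 mutants, 0 in all 3 batch 2 controls, and 0, 1 and 0 in the batch 2 mutants. On the TPM scale the batch 1 controls stood at 1.39, 2.53 and 1.85, and the only other value above 0 was 0.07, in 1 mutant of batch 2. *Frat2* was thus above 1 count in 3 of 11 embryos, all of them controls of the same batch.

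Because so few reads fell on *Frat2*, its differences were set against the limit that a count of 0 allows, taken as 3 counts over the whole group. In batch 1 controls *Frat2* had 3.02 CPM (counts scaled to the library totals). The limit in batch 1 mutants was 0.275 CPM, and the control value was 10.99-fold that limit. In the batch 2 controls the limit was 0.176 CPM, and the batch 1 control value was 17.2-fold that limit. These ratios are not lower bounds, since the limits cover only the counting error of the 0 counts. Counting error of the batch 1 controls, differences between embryos and PCR copies are left out. The mean normalised count of *Frat2* was 4.85, under the minimum of 10 used for calls. The DESeq2 fit gave a log2 fold change of -2.64 ± 1.53 (SE, 95% interval -5.65 to 0.37) and an unadjusted p of 0.0853, and DESeq2 gave it no adjusted p. The exact permutation test of mean TPM over 462 splits gave p = 0.182 (two-sided), where the smallest p that these tied values allow is 0.0152. Exact permutation within batches gave p = 0.1, and there the smallest possible p is 0.05, so that test could not have passed the threshold.

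The batch therefore bears on what can be said of *Frat2* in mutants. Within batch 1 both mutants were below all 3 controls, as were 11.7% of all tested genes in normalised counts and 11.6% in TPM. The DESeq2 fit of that batch alone gave *Frat2* a log2 fold change of -6.52 with an adjusted p of 0.0656. In batch 2 no fall could have been seen, since controls had no count. The term for a difference in genotype effect between the batches had an unadjusted p of 0.0326 and an adjusted p of 0.9997 for *Frat2* in DESeq2.

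The levels of both genes were added to ask directly about compensation. Summed over *Frat1* and *Frat2*, the TPM was 7.50, 16.98 and 7.18 in batch 1 controls and 0 and 0.47 in batch 1 mutants. In batch 2 it was 4.73, 1.97 and 1.88 in controls and 0.18, 0.07 and 0.61 in mutants. Every mutant lay below every control in the sum, as it did for *Frat1* alone. Most of the sum is *Frat1* (382 of 435 FRAT counts in controls), whose values chose the set. The separation of the sum thus follows from that choice and is no test of compensation. The group means of the sum were 6.71 ± 5.59 TPM (SD, n = 6) and 0.266 ± 0.263 TPM (SD, n = 5). Mean *Frat1* was 5.49 TPM lower in mutants, and mean *Frat2* differed by -0.948 TPM, in the same direction. No rise of *Frat2* was measured in any mutant that would offset the fall of *Frat1*. *Peg12*, the other mouse FRAT gene (Frat3), had 0 counts in all 11 embryos.

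**Figure D1:**
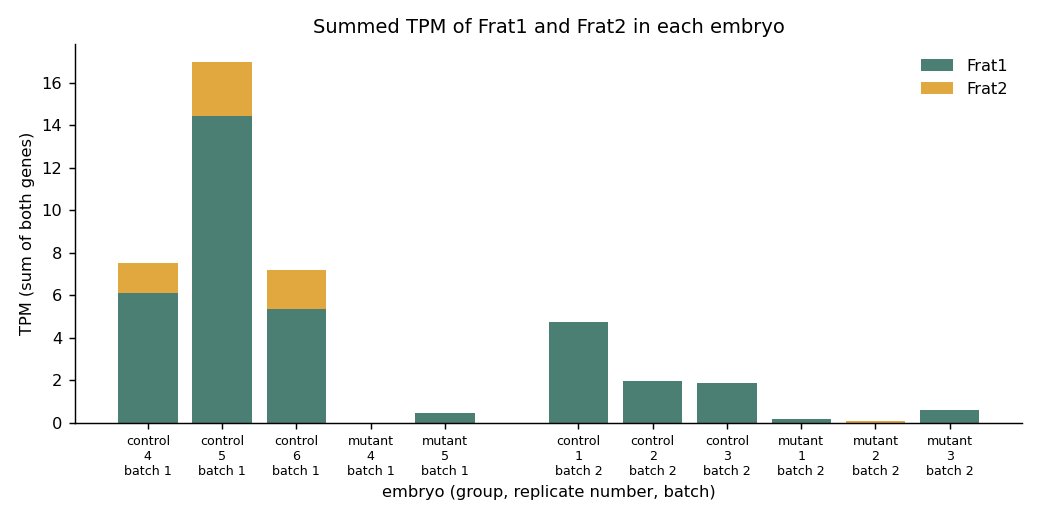
Stacked bars give the TPM of *Frat1* (green) and *Frat2* (yellow) in each of the 11 embryos, arranged by batch and group. Mutant bars reach at most 0.61 TPM against at least 1.88 TPM in controls, and *Frat2* is visible mainly in the 3 batch 1 controls.

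The share of FRAT counts that came from *Frat2* also differed between control batches. It was 53 of 323 counts in batch 1 controls, or 16.4% (exact Clopper-Pearson 95% interval 12.5% to 20.9%). In batch 2 controls it was 0 of 112 counts, where the same interval reaches 3.24% and the limit of 3 counts is 2.68%. The mutants together had 17 FRAT counts, of which 1 was from *Frat2*, too few to place their share. The intervals pool the embryos of a group, treat each read as a separate draw and cover counting error of reads only. Reads carried no molecular identifiers, so PCR copies are not accounted for, and neither are differences between embryos.

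The promoters are shown because both genes are on the study's list of genes near PRDM10 sites in mouse embryonic stem cells, and because they share a block of sequence. The study's gel-shift probes, an intact one and one with changed bases, are given first, with the bases that differ in capitals:

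probe WT: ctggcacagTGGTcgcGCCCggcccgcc
probe MUT: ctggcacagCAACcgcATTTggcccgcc

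From these a string of 11 letters was taken, TGGT followed by any 5 bases and then CC, and both strands were searched in RefSeq promoters (GRCm38.p6) from 250 bases before to 50 bases after each gene's start. It fixes 6 of the 8 bases that differ between the probes and is in the intact probe but not in the changed one. The matches shown depend on that looser choice: with all 8 bases fixed (TGGT, any 3 bases, GCCC) neither FRAT window held a match, and 1.45% of all promoters did. The 250 bases before the start of each FRAT gene follow, 5′ to 3′ along the gene, with matches to the string in capitals. They lie at chr19:41829720-41829969 (plus strand) for *Frat1* and chr19:41848133-41848382 (minus strand) for *Frat2*.

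Frat1: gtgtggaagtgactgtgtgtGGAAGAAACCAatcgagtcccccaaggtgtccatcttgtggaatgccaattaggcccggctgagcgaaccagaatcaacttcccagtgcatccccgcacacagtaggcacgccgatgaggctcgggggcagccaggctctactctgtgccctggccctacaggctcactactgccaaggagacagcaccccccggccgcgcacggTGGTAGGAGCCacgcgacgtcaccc
Frat2: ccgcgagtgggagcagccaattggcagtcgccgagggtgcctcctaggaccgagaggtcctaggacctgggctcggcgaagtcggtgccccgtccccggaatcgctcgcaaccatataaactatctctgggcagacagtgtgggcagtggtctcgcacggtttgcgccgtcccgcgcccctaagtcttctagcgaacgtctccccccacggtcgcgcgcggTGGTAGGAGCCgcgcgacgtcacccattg

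The same 11 bases, TGGTAGGAGCC, stood in both windows in the direction of the gene, at positions -25 to -15 from the start of *Frat1* and -29 to -19 from that of *Frat2*. *Frat1* held a second match on the opposite strand at -230 to -220. From the shared match to the end of the *Frat1* window 74 of 75 bases were identical between the genes (98.7%), with an unbroken run of 63 bases, whereas the bases before the match were 32.1% identical. No match was found in the windows of *Gsk3a*, *Gsk3b*, *Axin2* or *Peg12*. A window of *Prdm10* held 1 match, on the opposite strand at positions 10 to 20 from the start, and its other window held none. *Axin1*, *Apc* and *Csnk1a1* were not searched. The string was present in 13.8% of 32851 promoters, and 1.37% held it more than once, so its presence alone is common and a match is a description of the sequence, not of binding. The transcripts of *Frat1* and *Frat2* share 30 words of 75 bases, which are 1.18% of those of *Frat1* and 1.44% of those of *Frat2*, so few reads of that length could be assigned to either.

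*Frat1* and *Frat2* point towards each other on chromosome 19, with starts 18162 bases apart and 13388 bases between their 3′ ends. To see whether their neighbours moved with them, genes that start within 250 kb of the *Frat1* start were taken from the annotation. Of these 16 genes, *Frat2* included, 8 had a mean normalised count above 10, and 0 passed the threshold in either DESeq2 or edgeR, beside 1.45% and 0.334% of all genes. An unadjusted p under 0.05 was found for 1 of the 8 in DESeq2 and 0 in edgeR, beside 11.9% and 9.49% of all genes. *Exosc1*, a subunit of the RNA exosome, had the smallest unadjusted p (log2 fold change -0.42 ± 0.20 SE, DESeq2 adjusted p = 0.409). The log2 fold changes of the 8 genes ran from -0.62 to 0.42 with a median of 0.10, beside a median near 0 (-0.00124) over all tested genes.

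**Figure D2:**
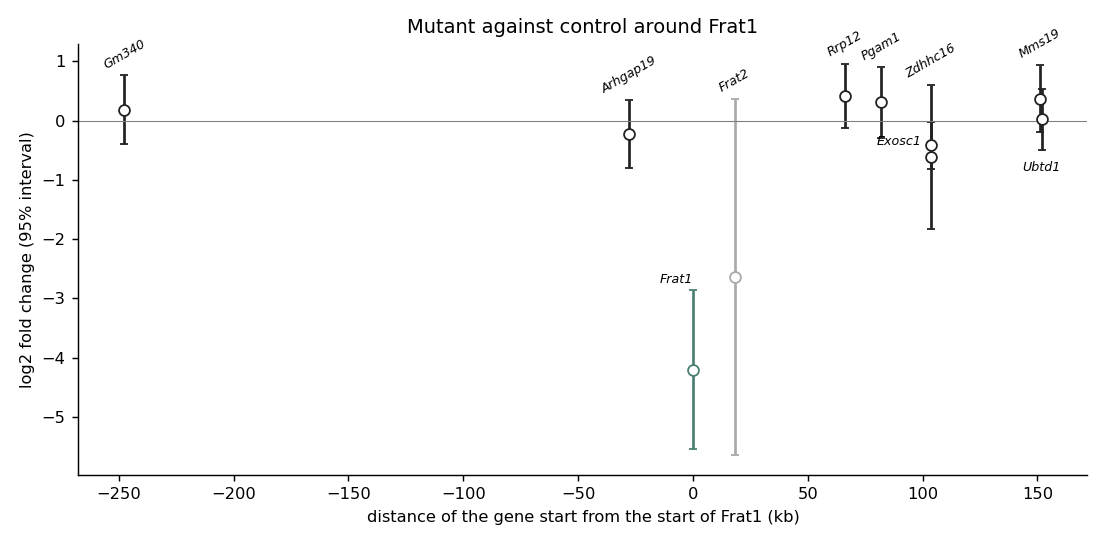
Points are DESeq2 log2 fold changes (mutant against control, bars are 95% intervals) of genes around *Frat1*, by distance of their start from its start in kb. *Frat1* (green) is at -4.20, *Frat2* (grey, below the count minimum) at -2.64 with an interval that reaches above 0, and the 8 tested neighbours lie between -0.62 and 0.42.

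The kinases that FRAT proteins bind were examined next. *Gsk3b*, which encodes GSK3 beta, gave the more abundant mRNA of the GSK3 genes here, and protein was not measured. Its TPM was 18.03 to 30.34 in controls (median 24.96) and 20.02 to 27.83 in mutants (median 24), and all 5 mutants lay inside the control range. The log2 fold change in counts was 0.03 ± 0.16 (SE, 95% interval -0.29 to 0.35, DESeq2 adjusted p = 0.976). *Gsk3a*, which encodes GSK3 alpha, was 0.58 to 8.92 TPM in controls (median 2.91) and 1.42 to 5.15 TPM in mutants (median 2.55). The groups overlapped fully, and the log2 fold change was -0.09 ± 0.53 (SE, 95% interval -1.13 to 0.94, DESeq2 adjusted p = 0.976). This interval is wider than that of *Gsk3b*, and in control replicate 1, of batch 2, *Gsk3a* had 117 counts against 3.59 to 35 in the other controls.

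**Figure D3:**
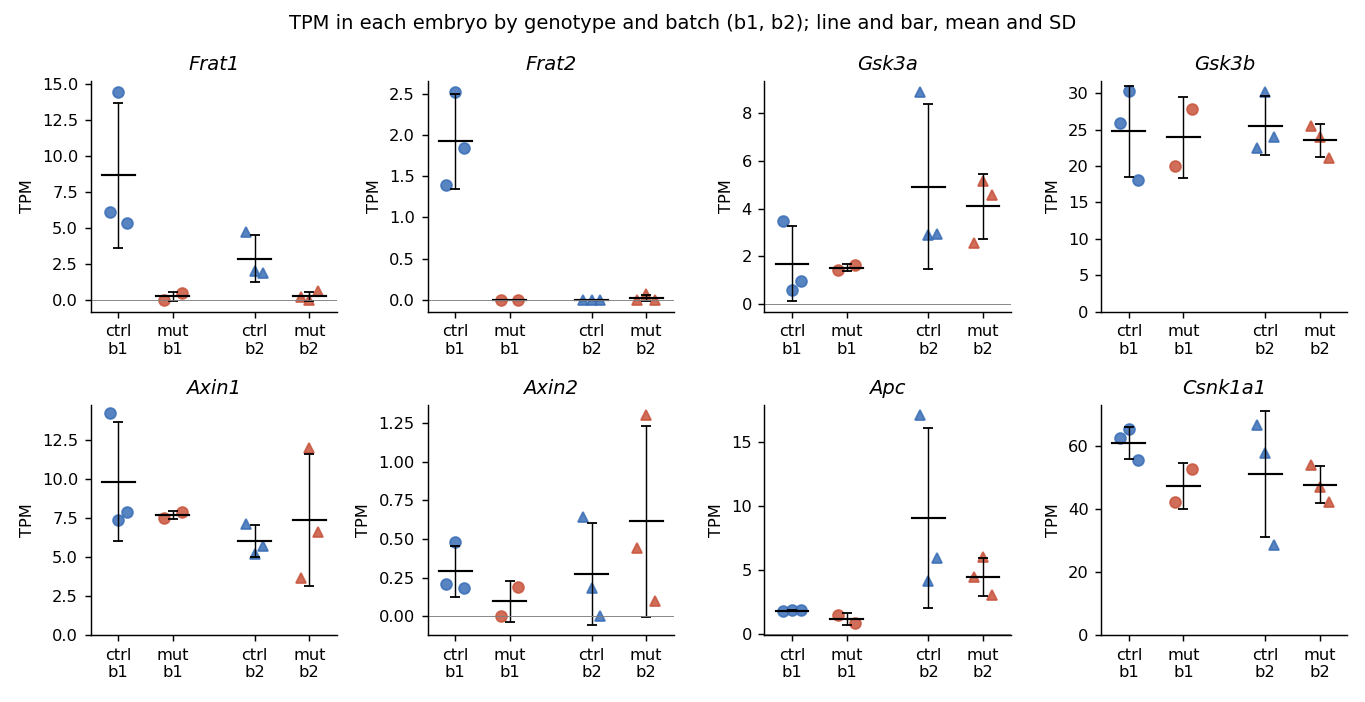
Each panel shows the TPM of a gene in every embryo, for controls (ctrl, blue) and mutants (mut, red) of batch 1 (b1, circles) and batch 2 (b2, triangles), with the mean and SD of each set of embryos. *Frat1* separates the groups in both batches, *Frat2* lies above 0.07 TPM only in batch 1 controls, and the control and mutant values of the other 6 genes overlap when the batches are pooled.

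Among the scaffolds, *Axin1* was 5.21 to 14.2 TPM in controls (median 7.26) and 3.64 to 12.0 TPM in mutants (median 7.50). The groups overlapped, with a log2 fold change of -0.08 ± 0.29 (SE, 95% interval -0.65 to 0.49, DESeq2 adjusted p = 0.964). The highest values were those of control replicate 4 and mutant replicate 2. *Axin2*, both a scaffold and a target of beta-catenin, was read at 0 to 0.64 TPM in controls and 0 to 1.3 TPM in mutants. No control had more than 9 counts and no mutant more than 24, and the mean normalised count of 3.86 was under the minimum for calls. A difference in *Axin2* was not detectable at this depth (log2 fold change 0.68 ± 1.25 SE, 95% interval -1.78 to 3.13).

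*Apc*, which encodes the large scaffold that binds beta-catenin and Axin, varied more between batches than between genotypes. Its expected counts were 106, 72 and 127 in batch 1 controls and 76 and 43 in batch 1 mutants. In batch 2 they were 1123, 136 and 393 in controls and 335, 502 and 180 in mutants. The groups overlapped within batch 2 and over both batches on the normalised scale, and in batch 1 both mutants (77.8 and 44.5 normalised counts) were below all 3 controls (86.9 to 105.0), as were 11.7% of all tested genes. The log2 fold change was -0.82 ± 0.33 (SE, 95% interval -1.46 to -0.17), which did not pass the threshold (unadjusted p = 0.0139, DESeq2 adjusted p = 0.2504, edgeR adjusted p = 0.425). An unadjusted p under 0.05 was found for 11.9% of all tested genes. Without control replicate 1, the highest control, the log2 fold change was -0.41. Over all fits that left out an embryo it ran from -0.99 to -0.41.

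*Csnk1a1*, the priming kinase, was 28.6 to 66.6 TPM in controls (median 60.1) and 42.1 to 53.9 TPM in mutants (median 47.0). Of the controls only replicate 3, at 28.6 TPM, was below any mutant. In batch 1 both mutants (42.1 and 52.5 TPM) were below all 3 controls (55.4 to 65.2 TPM), in normalised counts as well, as were 11.6% and 11.7% of all tested genes on those scales, and in batch 2 the groups overlapped. The difference in normalised counts did not pass the threshold (log2 fold change -0.07 ± 0.19 SE, 95% interval -0.43 to 0.30, DESeq2 adjusted p = 0.944). In TPM the mutants were lower by 8.43 on average (exact permutation test, two-sided, unadjusted p = 0.245). Without control replicate 3 that difference was -13.9 TPM (exact permutation test, two-sided, unadjusted p = 0.00794), whereas leaving out any other embryo gave exact permutation p values from 0.210 to 0.405. The count fit without control replicate 3 gave a log2 fold change of -0.20 (DESeq2 adjusted p = 0.668).

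Of the 8 genes, 6 were above the count minimum and received an adjusted p, and beside *Frat1*, which was chosen for it, 0 of the other 5 were called in DESeq2. With 1.45% of 10448 genes called over the whole table (0.881% lower and 0.565% higher in mutants), a count of 0 among 5 is near that background. edgeR called 0 of these 5 as well, against 0.334% of all genes, and *Apc* was the 1 gene among them at an unadjusted p under 0.05 in both tools. Exact permutation tests of TPM on the 7 genes other than *Frat1* gave unadjusted p values from 0.182 to 0.916. For the 5 above the count minimum, 0 were under 0.05, beside 6.41% of all tested genes. Within batches the unadjusted exact permutation p of these 5 ran from 0.145 to 0.76, with 0 under 0.05 beside 8.59% of all tested genes.

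**Figure D4:**
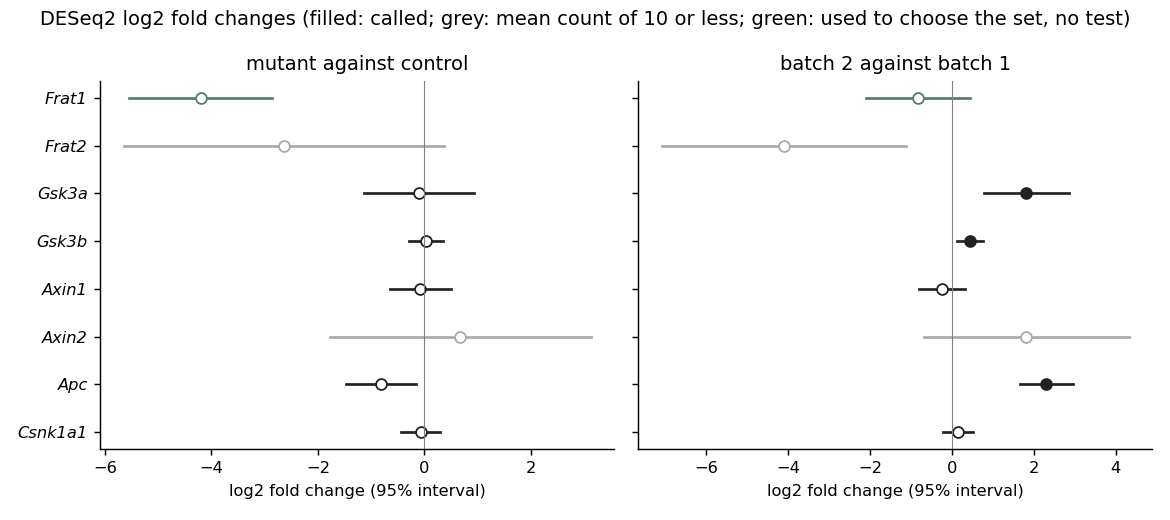
Points are DESeq2 log2 fold changes with 95% intervals, for mutants against controls (left) and batch 2 against batch 1 (right). On the left *Frat1* (green) is the gene chosen for its fall, none of the other genes is called, and the intervals of *Gsk3b* and *Csnk1a1* are the narrowest. On the right *Frat1* is again drawn with no test, and *Apc*, *Gsk3a* and *Gsk3b* are called higher in batch 2.

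Compared per length, the order of mean control TPM was *Csnk1a1* (56.0 ± 14.1 SD, n = 6), *Gsk3b* (25.2 ± 4.74), *Axin1* (7.92 ± 3.23), *Frat1* (5.75 ± 4.61), *Apc* (5.41 ± 5.94), *Gsk3a* (3.29 ± 2.99), *Frat2* (0.962 ± 1.11) and *Axin2* (0.282 ± 0.234). Neighbours in this order had overlapping ranges over the 6 controls, with the exception of *Gsk3b* and *Axin1*, whose ranges were 18.03 to 30.34 and 5.21 to 14.2 TPM. The order differed between the batches. In batch 1 controls mean *Frat1* was 8.63 TPM, *Apc* 1.81 TPM and *Frat2* 1.92 TPM, and in batch 2 controls *Frat1* was 2.86 TPM, *Apc* 9.01 TPM and *Frat2* 0 TPM. These values are descriptive.

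The batch coefficient of the same fit was read for the 5 tested genes other than *Frat1*. Of these, 3 were called higher in batch 2, where 27.9% of all tested genes were called in either direction and 13.8% higher. *Apc* was higher by 2.30 ± 0.33 (log2, SE, DESeq2 adjusted p = 4.38e-10), *Gsk3a* by 1.82 ± 0.53 (adjusted p = 0.00515) and *Gsk3b* by 0.44 ± 0.16 (adjusted p = 0.0329). All 3 were also called in edgeR, where 22.7% of all genes were. Without control replicate 1, *Apc* and *Gsk3a* were still called (log2 fold changes of 1.91 and 1.38). The call of *Gsk3b* was less stable, since it passed in 4 of the 11 fits that left out an embryo (adjusted p 0.0052 to 0.119) and not with an offset for effective gene length (log2 fold change 0.24, adjusted p = 0.355). The fitted batch difference of *Frat1*, whose counts chose the set, was -0.83 ± 0.65 (log2, SE) and is given with no test. *Frat2*, under the count minimum, had a batch log2 fold change of -4.11 ± 1.52 (SE).

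*Ovgp1*, a secreted product of oviduct epithelium, moved with the batches. It stood at 1.45 to 30.1 TPM in the 6 batch 2 embryos and at 0 to 0.81 TPM in the 5 of batch 1 (log2 fold change 5.87, DESeq2 adjusted p = 5.47e-06, edgeR adjusted p = 0.000897), and all 3 markers written for oviduct epithelium were detected in batch 2 against 1 in batch 1. Control replicate 1, highest for *Apc* and *Gsk3a*, had 24.2 TPM of *Ovgp1*. Mutant replicate 3, with the most *Ovgp1* (30.1 TPM), had the lowest *Apc* of batch 2 (3.02 TPM) and 4.58 TPM of *Gsk3a*. Mutant replicate 2 had 15.7 TPM of *Ovgp1*, 5.98 TPM of *Apc* and 5.15 TPM of *Gsk3a*. The remaining batch 2 embryos had 1.45 to 5.33 TPM of *Ovgp1*, 4.09 to 5.89 TPM of *Apc* and 2.55 to 2.94 TPM of *Gsk3a*. The part of oviduct RNA in the batch differences was not tested, and the batches cannot be told apart from their PCR cycles or collections. A genotype effect that differed between batches was called for 0 of the 5 tested genes other than *Frat1* in DESeq2 and edgeR, beside 0.0382% of all genes in DESeq2. None of these 5 had an unadjusted p under 0.05 for it in either tool, and *Frat2*, under the count minimum, had the unadjusted p of 0.0326 given above, where 4.3% of all genes were under 0.05 in DESeq2.

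Which transcripts of a gene the reads were assigned to is reflected in RSEM's effective length, a measure the choice of genes did not use. *Frat1* and *Frat2* have 1 annotated transcript each, so it was compared for the other 6 genes. The mean for *Csnk1a1* over the 6 controls was 2711 bases with an SD of 152, and over the 5 mutants it was 2977 bases with an SD of 159. Both mutants of batch 1 exceeded all 3 batch 1 controls, as in 9.13% of 8609 tested genes with more than 1 length, while in batch 2 the groups overlapped. The difference of 266 bases had an unadjusted p of 0.0260 (exact permutation test, two-sided), or 0.0200 with splits within batches, and of the 5 genes above the count minimum it was the 1 under 0.05. Over the same 8609 genes 5.16% were under 0.05, or 5.41% within batches. Without mutant replicate 3 the exact permutation p was 0.0619. For *Axin2* (684 bases longer in mutants, exact permutation p = 0.0606) and *Gsk3a* (206 bases longer, exact permutation p = 0.0931) few reads set the length. For *Gsk3b*, *Axin1* and *Apc* the unadjusted exact permutation p ran from 0.206 to 0.872.

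The rest of the pathway was read from 8 lists written by symbol, of 121 genes beside the set, 60 of which were above the count minimum. In mutants 0 of the 60 were called by DESeq2 or edgeR, beside 1.45% and 0.334% of all genes. An unadjusted p under 0.05 was found for 11 in DESeq2 and 8 in edgeR, beside 11.9% and 9.49% of all genes. The median log2 fold change over the 60 was 0.05. Of 26 partners and regulators of the destruction complex 22 were tested, with 13 lower and 9 higher by sign and a median of -0.12. *Btrc*, the F-box protein that recognises phosphorylated beta-catenin, was 102 ± 37.5 TPM (SD, n = 6) in controls and 170 ± 38.3 TPM (SD, n = 5) in mutants (log2 fold change 0.72 ± 0.25 SE, DESeq2 adjusted p = 0.128). *Ppp2r5c*, a regulatory subunit of the phosphatase PP2A, had a log2 fold change of 0.51 ± 0.16 (SE, DESeq2 adjusted p = 0.0737). These and the other genes named from the lists were picked after their values were seen, by an unadjusted p under 0.05 or for their role.

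Upstream of the complex, 1 of 19 Wnt ligands and 1 of 12 secreted inhibitors reached the count minimum, and neither was called. Of 23 genes for Wnt secretion, receptors and transducers 12 were tested, of which 6 were lower and 6 higher by sign (median 0.06). *Lrp6*, a Wnt co-receptor, had a log2 fold change of -0.01 ± 0.27 (SE, DESeq2 adjusted p = 0.997). Of the 7 kinases written as phosphorylating GSK3, 6 were tested and 0 called (median 0.16), among them *Akt2* (0.16 ± 0.21 SE, DESeq2 adjusted p = 0.848).

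Downstream, *Ctnnb1*, which encodes beta-catenin itself, was 66.8 ± 15.9 TPM (SD, n = 6) in controls and 61.8 ± 16.0 TPM (SD, n = 5) in mutants (log2 fold change -0.08 ± 0.24 SE, DESeq2 adjusted p = 0.951). Of 15 genes listed as beta-catenin and its nuclear partners 7 were tested (median 0.23), and *Tle3*, a co-repressor, had the largest difference (log2 fold change 1.38 ± 0.45 SE, DESeq2 adjusted p = 0.0929). Its edgeR adjusted p was 0.326. Over 22 alternative fits the adjusted p ran from 0.0225 to 0.9998 and *Tle3* was called in 2, with an offset for effective length (0.0225) and without control replicate 4 (0.0402), both in DESeq2. Of 18 beta-catenin targets, *Axin2* among them, only 5 were tested and 0 called (median 0.02), and the remaining 13 were under the count minimum. *Myc*, one of the 5, had a log2 fold change of 0.02 ± 0.68 (SE, DESeq2 adjusted p = 0.997). Among 9 other GSK3 substrates 8 were tested and 0 called (median 0.16), with *Eif2b5*, a subunit of the translation factor eIF2B, at 0.51 ± 0.17 (SE, DESeq2 adjusted p = 0.0914) and *Snai1*, a transcriptional repressor, at -0.92 ± 0.33 (SE, DESeq2 adjusted p = 0.161). By batch, DESeq2 called 13 of the 60 genes higher and 10 lower in batch 2, beside 13.8% and 14.0% of all genes. edgeR called 12 higher and 9 lower, beside 12.0% and 10.7% of all genes.

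**Figure D5:**
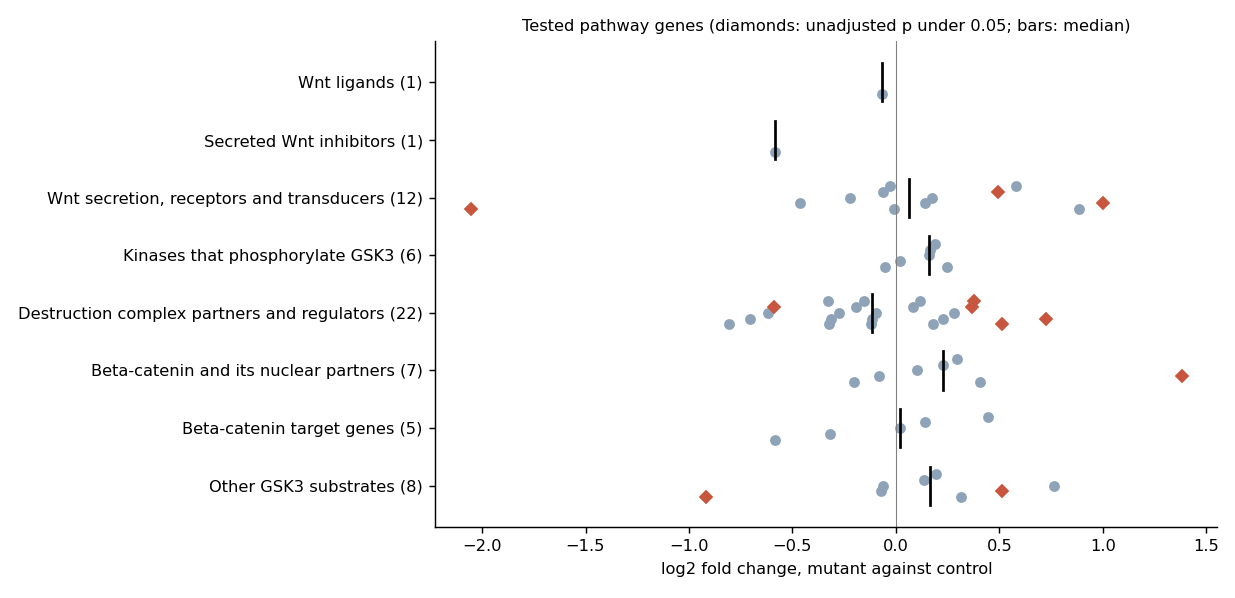
Each point is a tested gene, placed by its log2 fold change (mutant against control) in the list given on the left with its number of tested genes, and black bars are list medians. Red diamonds mark the genes at an unadjusted p under 0.05, 0 genes passed after adjustment, and list medians lie between -0.59 and 0.23.

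Genes whose pattern over the 11 embryos was most like that of *Frat1* were found by Pearson correlation of log2(normalised count + 1), after subtraction of the batch mean. They were *Flcn* (r = 0.97, n = 11), *Gm11544* (0.95), *Tardbp* (0.92), *Tcp11l2* (0.91) and *Rnasek* (0.91). All 5 had lower means in mutants in both batches, which the choice by likeness to *Frat1* fixes, *Flcn* with 56.1 normalised counts in controls and 7.05 in mutants. For *Frat2* they were *Tmem265* (r = 0.92, n = 11), *Gm6807* (0.91), *Ptp4a3* (0.91), *Dmxl2* (0.89) and *Gcc2* (0.88), and their likeness rests mainly on the 5 embryos of batch 1, since *Frat2* had at most 1 count in batch 2. All 5 had lower means in the mutants of batch 1, which this choice makes likely in advance. In batch 2 *Gm6807* was at 11.3 normalised counts in controls and 21.3 in mutants, *Ptp4a3* at 29.1 and 30.6, and *Tmem265* at 15.6 and 15.1. There *Dmxl2* was at 225.5 in controls and 185.3 in mutants, and *Gcc2* at 177.7 and 159.4. The embryos share genotype groups and batches, so these correlations describe the ordering of the same libraries.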

How the data were processed

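RNA of single embryos was sequenced by Smart-seq2, which adds no molecular identifiers, and PCR copies of a molecule were therefore counted as further reads. The authors mapped single-end reads to GRCm38.p6 with STAR (version 2.6.0c) and quantified genes with RSEM on a GENCODE annotation. Their deposited tables hold, for each gene and embryo, an expected count, which need not be whole, the TPM, which keeps no depth, and an effective length (a score in bases that follows the transcripts read). The deposited table of the authors' own comparison (fold changes and p-values from DESeq2 version 1.22.2) was not used here. Symbols and positions came from a later GENCODE release of the same build, and promoter sequences from RefSeq.

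Expected counts were rounded to whole numbers and fitted over the whole table with the DESeq2 (version 1.42.0, R version 4.3.3) Wald test, in a model of batch plus group with Benjamini-Hochberg adjustment over all tested genes. A gene was called at an adjusted p under 0.05 and a mean normalised count above 10. No p of *Frat1* is given, since its counts chose the set. TPM and effective length were compared by exact permutation over embryos, and their p values are unadjusted: the adjustment over the set planned at first was dropped, since the genes were chosen with results known. Each embryo is 1 replicate, numbered by order within its group. Named genes were the set, *Peg12*, *Prdm10*, neighbours of *Frat1* and the 5 genes most like *Frat1* or *Frat2*, and the rule also took called list genes, of which there were 0. Uncalled list genes and markers in the text were picked after their values were seen. The members and lists were chosen with earlier results of these data known.

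Alternatives were edgeR (version 4.0.16, quasi-likelihood), limma (version 3.58.1) on log2(TPM + 1) and log2(TPM + 0.1), TMM factors, no count minimum, at least 10 counts in 5 libraries, an effective-length offset, no Cook's distance filter, a model without batch, the batches fitted one at a time, and fits that each omitted an embryo. Fits were tested on simulated data, where calls were false more often than the nominal share, for DESeq2 more so than for edgeR, so edgeR, fitted to genes above the count minimum, stands beside the DESeq2 calls.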

Additional observations from a re-analysis of the deposited data

Results flagged for a closer look

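Values far from the rest of their group were looked for with Dixon's test at 95%, over 28 sets of values (normalised read count and TPM of each gene other than *Frat1* in controls and in mutants). Chance alone would mark about 1 in 20 sets, and 10 were marked, of which 2 (*Frat2* in mutants) follow from a single count in a group otherwise at 0. The normalised count and the TPM of a gene come from the same reads, so they are not separate evidence. Control replicate 1 stood above the others for *Apc* (930 normalised counts against 86.9 to 381, and 17.1 TPM against 1.79 to 5.89). It did so as well for *Gsk3a* (96.9 normalised counts against 5.38 to 33.9, and 8.92 TPM against 0.58 to 3.48) and for *Axin2* (7.46 normalised counts against 0 to 2.69). Control replicate 4 was high for *Axin1* (205.9 normalised counts against 93.8 to 134.7, and 14.2 TPM against 5.21 to 7.90). Control replicate 3 was low for *Csnk1a1* (28.6 TPM against 55.4 to 66.6). Mutant replicate 2 held the single *Frat2* count found in mutants (0.762 normalised counts, 0.07 TPM, against 0 in the other 4).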

How the results depend on the processing

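The number of members other than *Frat1* called for genotype was 0 in all 22 alternative fits, as was the number called among genes near *Frat1*. The log2 fold change of *Frat1* was below 0 in every fit, which the choice of the set by its fall fixed in advance. This fold change ran from -5.11 to -3.74 over the fits that left out an embryo. It was -2.14 on log2(TPM + 1), a scale that compresses low values. That of *Frat2* was -5.15 without the batch term, -6.52 in batch 1 alone and 0.52 in batch 2 alone, where controls had no count, and ran from -3.62 to -1.30 with an embryo left out. Uncalled values near 0 changed sign. *Gsk3a* was 0.043 on log2(TPM + 0.1), 0.14 in batch 1 alone and -0.25 to 0.37 with an embryo left out. *Gsk3b* was -0.077 on log2(TPM + 1), -0.079 on log2(TPM + 0.1), -0.065 with the effective-length offset, -0.027 in batch 2 alone and -0.049 to 0.11 with an embryo left out. *Axin1* was 0.040 with that offset, 0.12 in batch 2 alone and -0.30 to 0.058 with an embryo left out. *Csnk1a1* was 0.073 in batch 2 alone and -0.20 to 0.0076 with an embryo left out. *Axin2* was -0.71 in batch 1 alone, 1.48 in batch 2 alone and -0.12 to 1.34 with an embryo left out. Pathway genes called numbered 1 with the offset (*Tle3*) and 0 to 1 with an embryo left out (*Btrc* without control replicate 2, *Eif2b5* without control replicate 3, *Tle3* without control replicate 4). Members with an unadjusted exact permutation p under 0.05 numbered 0 to 1 for TPM and 0 to 3 for effective length with an embryo left out. Among the 5 above the count minimum and other than *Frat1* they numbered 0 to 1 and 0 to 2, beside 5.06% to 7.25% and 4.03% to 5.31% of all genes in the same tests. Restricting the search to bases before the start gave 11.5% of promoters with the string, and fixing all 8 bases that differ between the probes, an alternative chosen after seeing the data, gave 1.45%. The cause of these shifts was not tested. No paired analysis was possible because the labels give embryos no replicate numbers that are shared between groups. *Frat2* and *Axin2* were limited by few counts, both under the count minimum. The limit of 3 counts was 0.171 CPM in batch 1 controls, 0.275 CPM in batch 1 mutants, 0.176 CPM in batch 2 controls and 0.133 CPM in batch 2 mutants.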
